A study of Mus musculus with 49 samples.

Results

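The genes described here are 10 genes of intestinal mucus and of the goblet cells that make it: Muc2, Fcgbp, Clca1, Tff3, Zg16, Agr2, Spink4, Muc1, Muc13 and Spdef. They were taken as a named list, by Entrez gene ID, from the 24475 gene IDs of each counts table, and all 10 were present in both tables. All 10 had enough reads to be tested in colon and 6 in skin. Messenger RNA was sequenced from 26 colon and 23 skin libraries of mice that the labels call a DITRA model, controls included, on a background of 75% C57BL/6NTac and 25% 129S6/SvEvTac. DITRA is deficiency of the interleukin-36 receptor antagonist, and the study's title names receptor signalling, barrier damage and inflammation in both tissues as its question.

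In colon, 5 libraries came from mice given water and injected with PBS (water PBS), 6 from mice given dextran sulfate sodium, which injures the lining of the large intestine, and PBS (DSS PBS), 8 from DSS mice injected with anti-human IL-36R (DSS anti-IL-36R), which targets the receptor's human form, and 7 from DSS mice injected with anti-mouse IL-12p40 (DSS anti-IL-12p40). In skin, 3 libraries came from water PBS mice, 6 from mice treated with imiquimod, a Toll-like receptor agonist, and PBS (IMQ PBS), 7 each from IMQ mice given the first or the second of these antibodies. The labels give no age, dose, time, alleles of the model or record of which animal gave which library. The p-values therefore measure the spread between these libraries.

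Goblet cells are secretory cells of the gut lining that fill with mucin and release it as a gel. The gel of the colon is built from Muc2, and other goblet cell proteins bind, cut or fold it, while membrane mucins such as Muc1 and Muc13 stay anchored on the cell surface. Spdef is an ETS-family transcription factor that drives the maturation of goblet cells. In the colon the mucus keeps bacteria away from the epithelium. In bulk tissue, fewer cells of a type and less RNA per cell cannot be told apart.

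Promoters are shown for Muc2, Agr2 and Spdef, whose levels moved most closely together in colon. That of Fcgbp, the only member abundant in skin, is added. Each is 300 bases of RefSeq sequence (build GRCm38.p6), from 250 bases before to 50 after the gene start, written 5′ to 3′ on the gene's strand. Of the 10 genes, 6 had an entry, and Clca1, Tff3, Zg16 and Spink4 are named only. Capitals mark GGAT, the core of the sequence that SPDEF prefers, or its reverse complement ATCC, and CAGCTG, a form of the E-box bound by ATOH1, which reads the same on both strands. The Spdef start used by the table lies inside the annotated gene.
Muc2 (chr7:141690090-141690389, plus strand): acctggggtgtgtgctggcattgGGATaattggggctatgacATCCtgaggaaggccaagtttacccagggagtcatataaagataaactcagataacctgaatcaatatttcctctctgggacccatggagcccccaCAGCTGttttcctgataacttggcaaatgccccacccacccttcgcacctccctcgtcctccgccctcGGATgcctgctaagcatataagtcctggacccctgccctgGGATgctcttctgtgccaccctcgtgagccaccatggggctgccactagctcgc
Agr2 (chr12:35992675-35992974, plus strand): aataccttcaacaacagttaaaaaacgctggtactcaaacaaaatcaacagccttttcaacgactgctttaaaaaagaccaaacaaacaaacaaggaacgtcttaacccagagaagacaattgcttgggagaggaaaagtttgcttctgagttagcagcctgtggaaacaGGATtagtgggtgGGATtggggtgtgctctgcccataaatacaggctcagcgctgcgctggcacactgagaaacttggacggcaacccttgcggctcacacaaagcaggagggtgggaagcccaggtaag
Spdef (chr17:27728902-27729201, minus strand): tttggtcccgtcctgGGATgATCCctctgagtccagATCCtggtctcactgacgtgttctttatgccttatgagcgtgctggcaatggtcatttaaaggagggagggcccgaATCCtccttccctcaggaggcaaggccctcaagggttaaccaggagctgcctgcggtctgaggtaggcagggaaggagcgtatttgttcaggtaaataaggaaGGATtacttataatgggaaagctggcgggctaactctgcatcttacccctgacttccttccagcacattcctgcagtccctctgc
Fcgbp (chr7:28070986-28071285, plus strand): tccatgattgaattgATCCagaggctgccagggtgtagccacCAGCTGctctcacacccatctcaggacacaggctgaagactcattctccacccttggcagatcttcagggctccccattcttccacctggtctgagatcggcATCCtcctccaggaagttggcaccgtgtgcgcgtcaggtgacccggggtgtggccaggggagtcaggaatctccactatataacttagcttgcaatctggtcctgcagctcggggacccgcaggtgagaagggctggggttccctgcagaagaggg
GGAT was found on either strand 4 times in the Muc2 window, 2 times in that of Agr2, 5 times in that of Spdef and 2 times in that of Fcgbp. Such a short word is common: 79.6% of the 32851 promoters in the table held it, with a median of 2 matches. CAGCTG stood 1 time each in the Muc2 and Fcgbp windows and was not in those of Agr2 and Spdef, against 16.3% of all promoters. A match describes these letters and is not evidence of binding.

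Depth was similar throughout, with totals of 15.08 to 18.66 M expected counts per colon library and 14.72 to 19.68 M per skin library. Values are CPM, which scales each count to the size of its library after TMM adjustment, and a gene is said to have risen or fallen at a Benjamini-Hochberg adjusted p below 0.05 in edgeR's quasi-likelihood test over all genes tested. Water PBS replicate 4 of the colon stands apart from its group. Its 6 posterior Hox genes (Hoxa13, Hoxb13 and Hoxd10 to Hoxd13), which mark the distal end of the hindgut, had a mean level of 0.77 log2 CPM against 5.06 to 5.31 in the other 4 water libraries and 2.52 to 5.46 in the DSS libraries. Values without it, an alternative chosen after the data were seen, stand beside the comparisons with water that it changes. The epithelium markers (12 genes, among them Epcam, Cdh1 and Krt8) stood at 8.48 to 8.78 log2 CPM in all 5 water libraries, but at 6.94 to 8.85 in DSS PBS.

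Muc2 (chr7:141690340-141754691 in GRCm38, as for the genes below), the gel-forming mucin, varied more between libraries of the colon than between groups. In water PBS it stood at 2500, 3700, 4100, 46400 and 3490 CPM in replicates 1 to 5. In DSS PBS the lowest, median and highest values were 1660, 6070 and 12800 CPM. With anti-IL-36R they were 3170, 6480 and 20000 CPM, and with anti-IL-12p40 3370, 9080 and 13000 CPM. The 4 groups overlap, and water replicate 4, the library with the low Hox markers, lies 13.5 times above the mean of the other 4 water libraries. With all libraries Muc2 was -0.93 ± 0.652 (log2 fold change ± SE) in DSS PBS against water PBS, with an adjusted p of 0.287 by edgeR. Without that library the same difference was 0.87, with an adjusted p of 0.19, so its sign rests on 1 library. The group medians run from water through DSS PBS and anti-IL-36R to anti-IL-12p40, and no neighbours in that order differed beyond their spread.

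**Figure D1:**
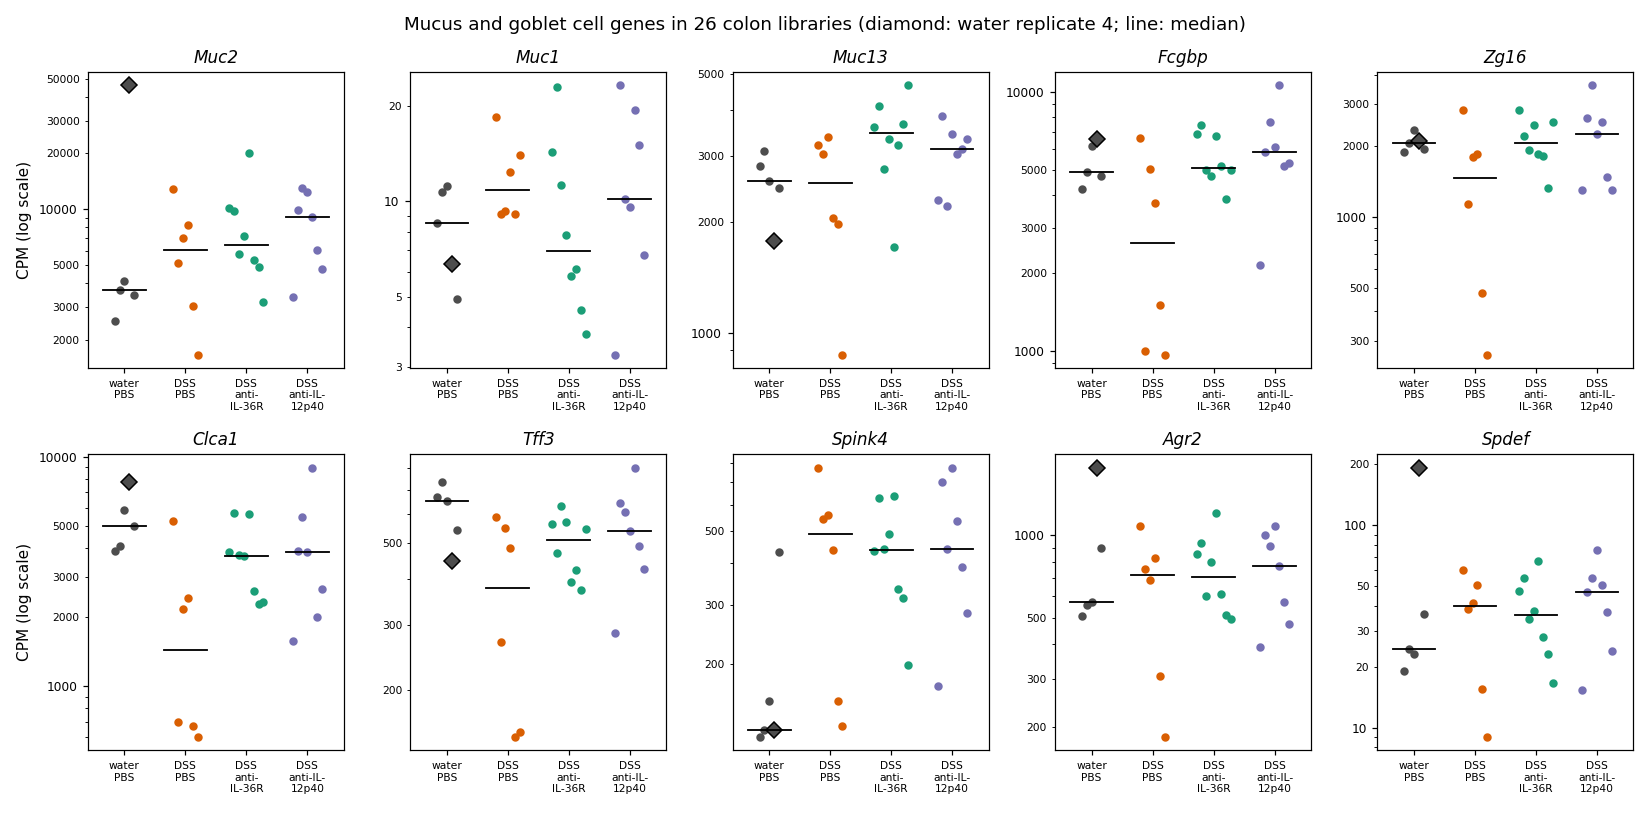
CPM (log scale) of the 10 genes in each of 26 colon libraries by group, with the group median as a line and water replicate 4 as a diamond. The diamond lies far above the other water libraries for Muc2 (46400 against 2500 to 4100 CPM) and Spdef (193 against 19.1 to 36.7 CPM), and DSS PBS is widely spread for Fcgbp, Clca1 and Zg16.

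The membrane mucins showed little difference between the colon groups. Muc13 (chr16:33794037-33819929; at 2820, 3100, 2580, 1770 and 2470 CPM in water) ranged from 877 to 3380 CPM in DSS PBS, with a log2 fold change of -0.07 ± 0.261. Its reads are shared with other genes in every colon library, as its values are not whole numbers. Muc1 (chr3:89229056-89233381) was low in colon, at 8.52, 10.7, 11.2, 6.36 and 4.93 CPM in water and 9.11 to 18.5 CPM in DSS PBS (log2 fold change 0.53 ± 0.438, adjusted p 0.377 by edgeR). The Muc1 ranges of these groups overlap. Muc1 ran from 3.82 to 23 CPM with anti-IL-36R and from 3.28 to 23.3 CPM with anti-IL-12p40, wider ranges than in the other groups.

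Among the proteins that bind and process the gel, Clca1 (chr3:145004537-145032776), a secreted protease that cleaves Muc2, fell in DSS PBS. It stood at 3900, 4080, 5880, 7770 and 4980 CPM in water and at 5240, 696, 2170, 2420, 670 and 602 CPM in DSS PBS replicates 1 to 6. In 5 of 6 DSS PBS libraries it was below every water library, and replicate 1 was within their range. Clca1 differed by -1.44 ± 0.486 on the log2 scale, with an adjusted p of 0.0262 by edgeR. Leaving out water replicate 4, it was -1.26 with an adjusted p of 0.062, and the call was also lost when DSS PBS replicate 2, 5 or 6 was left out (-1.26, -1.24 and -1.23). In a fit of the compared groups alone it was -1.42 with an adjusted p of 0.0982.

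Fcgbp (chr7:28071236-28120864), a large protein bound to the Muc2 gel, stood at 4220, 4900, 6180, 6560 and 4760 CPM in water. In DSS PBS it stood at 6670, 1000, 5040, 3740, 1510 and 971 CPM. In DSS PBS 4 of 6 libraries lie below every water library, and replicate 1 lies above them. Its difference of -0.75 ± 0.402 did not pass (adjusted p 0.156 by edgeR), although it was -1.12 with an adjusted p of 0.0264 without DSS PBS replicate 1. Zg16 (chr7:127050156-127052675), a lectin-like protein that binds bacteria, ran from 262 to 2820 CPM in DSS PBS, with 5 of 6 libraries below and 1 above the water range of 1880 to 2330 CPM (-0.57 ± 0.387, adjusted p 0.269). Fcgbp reads, like those of Muc13, are shared with other genes in every colon library.

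The DSS PBS libraries with the lowest Clca1 and Fcgbp were replicates 2, 5 and 6. Their neutrophil markers (8 genes, among them S100a8 and Cxcr2) had mean levels of 7.42, 7.6 and 7.13 log2 CPM, against 4.15, 4.6 and 5.3 in replicates 1, 3 and 4 and -1 to -0.02 in water. Of these markers 7 of 8 rose in DSS PBS. Over the 26 libraries, after subtracting group means, the neutrophil level correlated with Clca1 at r = -0.79, with Zg16 at r = -0.76 and with Fcgbp at r = -0.75. Other cell type lists moved with these genes as well. In the same order, absorptive colonocyte markers correlated at 0.61, 0.88 and 0.55, and fibroblast markers at -0.63, -0.77 and -0.6. These points share a library and its total, and the part of neutrophil or other cell type RNA in the result was not tested. Keratinocyte markers, of which 4 of 6 tested rose in DSS PBS, correlated with Zg16 at r = -0.88.

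Tff3 (chr17:31125306-31129611), a trefoil peptide of mucosal repair secreted with the mucins, stood at 669, 736, 651, 447 and 543 CPM in water and at 590, 269, 549, 485, 149 and 154 CPM in DSS PBS. In 3 of 6 DSS PBS libraries it was below every water library. Its log2 fold change was -0.73 ± 0.3 with an adjusted p of 0.0626 by edgeR. With water replicate 4, the lowest of its group, left out, it was -0.83 with an adjusted p of 0.0487. DESeq2 (-0.72, adjusted p 0.0461) and limma-voom (-0.59, adjusted p 0.0471) called it lower with all libraries.

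Spink4 (chr4:40920056-40931395), a Kazal-type protease inhibitor of goblet cells, rose in DSS PBS. It stood at 121, 127, 155, 127 and 433 CPM in water, with replicate 5 well above the other 4. In DSS PBS it stood at 774, 542, 558, 439, 155 and 130 CPM, so 4 of 6 libraries were above every water library and 2 were within the water range. The difference was 1.17 ± 0.451 on the log2 scale with an adjusted p of 0.0496 by edgeR, at the edge of the threshold. Leaving out water replicate 4 gave 1.05 with an adjusted p of 0.104, and leaving out water replicate 1, 2 or 3 or DSS PBS replicate 1, 2, 3 or 4 also ended the call (log2 fold changes of 0.93 to 1.17).

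Agr2 (chr12:35992925-36004081), a disulfide isomerase that folds mucin in the endoplasmic reticulum, and Spdef (chr17:27714446-27731003) followed Muc2. Agr2 stood at 507, 557, 570, 1760 and 900 CPM in water and at 184 to 1080 CPM in DSS PBS (-0.43 ± 0.384, adjusted p 0.418 by edgeR). Spdef stood at 19.1, 24.4, 23.1, 193 and 36.7 CPM in water and at 60.4, 38.8, 41.3, 50.7, 15.6 and 9.03 CPM in DSS PBS. Spdef in water replicate 4 was 7.47 times the mean of the other 4 libraries. Its difference of -0.72 ± 0.549 with all libraries (adjusted p 0.333) was 0.48 without that library (adjusted p 0.455), and that of Agr2 was 0.01.

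Over all 10 genes, 1 rose (Spink4) and 1 fell (Clca1) in DSS PBS against water, while 32.2% of the 15731 genes tested were called, 17.6% higher and 14.6% lower. The members' median log2 fold change was -0.65, beside -0.04 for all genes, with 8 of 10 below 0. That tally depends on water replicate 4. Without it, Muc2 (0.87), Spdef (0.48) and Agr2 (0.01) were above 0, as were Spink4 (1.05) and Muc1 (0.45). Without water replicate 4, Tff3 was the only member called by edgeR, where 32% of the 15843 genes tested were called. No test set the members against all genes.

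**Figure D2:**
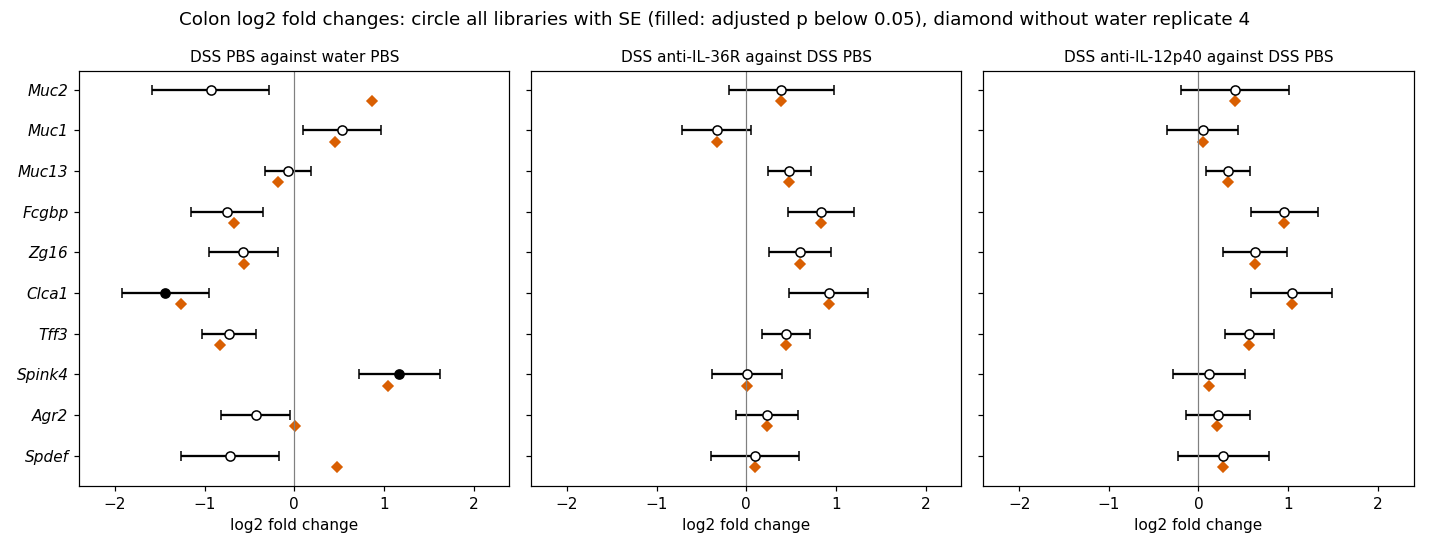
Log2 fold change (x axis) of each of the 10 genes in 3 colon comparisons, as circles with SE from all libraries (filled where called) and as diamonds without water replicate 4. In DSS PBS against water the diamonds of Muc2 (0.87) and Spdef (0.48) lie on the other side of 0 from their circles (-0.93 and -0.72), while in the antibody comparisons circles and diamonds nearly coincide.

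No member was called when either antibody was compared with PBS under DSS. With anti-IL-36R, 6.51% of all genes were called by edgeR (0 of 10 members, 2 of them with an unadjusted p below 0.05), and DESeq2 and limma-voom also called 0. With anti-IL-12p40, 0.998% of all genes were called (0 of 10 members, 2 with an unadjusted p below 0.05, and 0 by DESeq2 and limma-voom). Of the 15731 genes tested, 3637 with anti-IL-36R and 1892 with anti-IL-12p40 had an unadjusted p below 0.05 by edgeR. The members' log2 fold changes were above 0 for 9 of 10 with anti-IL-36R (median 0.42, beside 0.00 for all genes) and for 10 of 10 with anti-IL-12p40 (median 0.37, beside 0.00). That tally depends on the setting. Over the alternatives, the lowest values with anti-IL-36R were below 0 for Muc2 (-0.11), Agr2 (-0.2), Spink4 (-0.38) and Spdef (-0.39), and with anti-IL-12p40 for Muc2 (-0.11), Agr2 (-0.19), Spink4 (-0.24), Muc1 (-0.17) and Spdef (-0.2). Fcgbp, Clca1, Tff3, Zg16 and Muc13 stayed above 0 with both antibodies in every alternative run. These comparisons share the 6 DSS PBS libraries.

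Fcgbp was 0.83 ± 0.367 higher on the log2 scale with anti-IL-36R (3860, 5090 and 7430 CPM as lowest, median and highest) and 0.96 ± 0.377 with anti-IL-12p40 (2160, 5850 and 10600 CPM). The adjusted p was 0.174 and 0.28 by edgeR. The antibody ranges lie mostly inside that of DSS PBS, with 3 of 8 and 2 of 7 libraries above it. Clca1 differed by 0.92 ± 0.441 with anti-IL-36R (2280, 3710 and 5700 CPM) and by 1.04 ± 0.453 with anti-IL-12p40 (1570, 3850 and 8960 CPM), with an adjusted p of 0.211 and 0.341. DSS PBS replicate 1 decides these calls: without it, Fcgbp (1.19, adjusted p 0.0327) and Clca1 (1.5, adjusted p 0.0208) passed with anti-IL-36R, and Clca1 (1.62, adjusted p 0.0374) with anti-IL-12p40.

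The other members differed less from DSS PBS. Tff3 was 0.44 ± 0.27 and 0.57 ± 0.278 with anti-IL-36R and anti-IL-12p40, Zg16 0.6 ± 0.35 and 0.63 ± 0.36, and Muc13 0.48 ± 0.236 and 0.33 ± 0.241, none of them called. Spink4, which rose with DSS, was 0.01 ± 0.392 and 0.12 ± 0.405, with 435 ± 152 CPM (SD, n = 8) under anti-IL-36R and 471 ± 216 CPM (SD, n = 7) under anti-IL-12p40 beside 433 ± 250 CPM (SD, n = 6) in DSS PBS. Of the neutrophil markers 7 of 8 fell with anti-IL-36R and 6 of 8 with anti-IL-12p40. Their part in these differences was not tested.

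Between the antibodies, edgeR called 0 of 10 members and 0% of all genes. At an unadjusted p below 0.05 stood 0 members and 547 of the 15731 genes tested. DESeq2 and limma-voom called 0 members too. The largest member difference was that of Muc1, at -0.38 ± 0.37 for anti-IL-36R minus anti-IL-12p40. Against water PBS, 0 of 10 members were called with anti-IL-36R (9.87% of all genes), although DESeq2 and limma-voom each called Spink4. An unadjusted p below 0.05 by edgeR was found there for 1 member and for 3835 of the 15731 genes tested. With anti-IL-12p40, Spink4 rose by 1.29 ± 0.442 (adjusted p 0.0458 by edgeR), where 17.2% of all genes were called. That difference was 1.17 without water replicate 4, with an adjusted p of 0.0956. The Spink4 difference with anti-IL-36R was 1.17 ± 0.432 (adjusted p 0.0877), and without water replicate 5 it was 1.71 (adjusted p 0.0197).

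The members fell into sets that moved together within groups. After subtracting group means over the 26 colon libraries, Muc2 correlated with Spdef at r = 0.96 and with Agr2 at r = 0.9, and Agr2 with Spdef at r = 0.96. Fcgbp correlated with Clca1 at r = 0.92 and Tff3 with Zg16 at r = 0.87. Muc13 was unrelated to Muc2 (r = -0.02), and Muc1 only weakly related (r = 0.24). Without water replicate 4, Muc2 with Spdef stayed at 0.95, Spink4 with Spdef went from 0.67 to 0.93, and Muc2 with Tff3 from 0.33 to 0.63. The libraries share their totals, and these values are descriptions.

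Among 13009 genes, the 5 whose levels followed Muc2 most closely within groups were Mia3 (r = 0.98), which loads large cargo into transport vesicles at the endoplasmic reticulum, Ptprn2 (0.97), a protein of secretory granules, Spdef (0.96), Cgref1 (0.96) and Elapor1 (0.95). Over all libraries without subtracting means they were at 0.97, 0.97, 0.95, 0.95 and 0.95. For Spdef they were Cgref1 (0.98), Slc12a8 (0.98), Muc2 (0.96), Agr2 (0.96) and Elapor1 (0.95), at 0.97, 0.97, 0.95, 0.95 and 0.94 over all libraries. For Muc1 they were Etaa1 (0.81), Morc4 (0.79), Rab27a (0.76), Dpp4 (0.74) and Zfp646 (0.72), at 0.37, 0.33, 0.75, 0.51 and 0.66, so that the Etaa1 and Morc4 relations are much weaker once group differences are left in. Water replicate 4 changes these sets. Without it, the 5 genes closest to Muc2 were Elapor1 (0.97), Slc12a8 (0.96), Mia3 (0.96), Ptprn2 (0.95) and Cgref1 (0.95). Those closest to Spdef were then Slc12a8 (0.98), Cgref1 (0.97), Agr2 (0.97), Slc7a4 (0.96) and Pdia5 (0.95). Around Muc1 they were Etaa1 (0.81), Rab27a (0.79), Morc4 (0.79), Dpp4 (0.74) and Arel1 (0.73).

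The distal Hox markers moved with the Muc2 set. Within groups, Muc2 correlated with their mean level at r = -0.82, Spdef at -0.75, Agr2 at -0.67 and Clca1 at -0.5, while Tff3 was at -0.01 and Muc13 at 0.31. Without water replicate 4 these were -0.64, -0.58, -0.58, -0.55, -0.22 and 0.19. With the Hox level as a covariate in the fit (an alternative added after the data were seen), edgeR called Clca1 alone among the members in DSS PBS against water. With the epithelium markers as a covariate it called Spink4 alone, and Clca1 was at -1.05 with an adjusted p of 0.119. The shares of all genes called in these covariate fits are not given here, so these calls are not read as results about the members. Whether the libraries were cut from different positions of the colon was not tested.

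**Figure D3:**
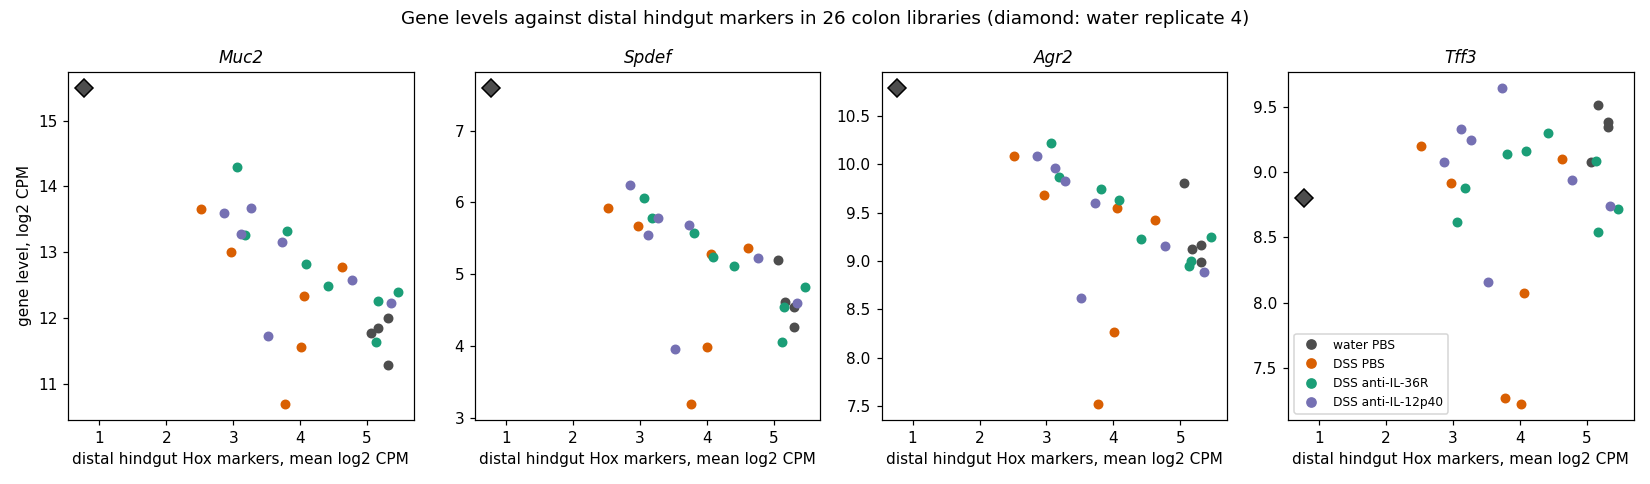
Level of Muc2, Spdef, Agr2 and Tff3 (log2 CPM, y axis) against the mean level of 6 posterior Hox markers (log2 CPM, x axis) in 26 colon libraries, coloured by group with water replicate 4 as a diamond. Muc2, Spdef and Agr2 are higher where the Hox level is lower (within-group r of -0.82, -0.75 and -0.67), and Tff3 shows no such slope (-0.01).

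Other genes of the mucus pathway in colon were counted from lists, beside the 32.2% of all genes called in DSS PBS against water. Of 9 genes of mucus processing and bacterial spacing, 6 fell in DSS PBS against water and 0 rose, with a median log2 fold change of -1.2. Those with the smallest adjusted p were Itln1, an intelectin that binds bacterial sugars (-7.17 ± 1.42, adjusted p 0.000471 by edgeR), Mep1a, a subunit of the protease meprin that frees Muc2 (-1.91 ± 0.399, adjusted p 0.000802), the chloride channel Cftr (-1.2 ± 0.33) and the chloride-bicarbonate exchanger Slc26a3 (-1.81 ± 0.564). Itln1 stood at 1.05, 0.619, 0.961, 744 and 16.7 CPM in water and at 0.418 to 1.78 CPM in DSS PBS. Water replicates 1, 2 and 3 lie within the DSS PBS range, so the Itln1 fold rests on replicates 4 and 5. Without replicate 4 it was -2.19 (adjusted p 0.0427 by edgeR). Mep1a was at -1.66, Cftr at -1.21 and Slc26a3 at -1.97 without replicate 4, and 6 of 9 were again called lower, Itln1 among them. Of the absorptive colonocyte markers 5 of 12 fell as well, and Slc26a3 is on both lists. Against water, Itln1 fell with anti-IL-36R (-6.83) and anti-IL-12p40 (-4.58), but was called in neither without water replicate 4 (-1.84 and 0.4). With anti-IL-12p40 against water Mep1a (-1.13) and Slc26a3 (-1.57) fell, and Mep1a was not called without that library.

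Of 21 goblet cell companions tested, 1 rose, 5 fell and 15 were not called (median -0.42), a share near that of all genes. Clca4b, a relative of Clca1, rose from 1.87 to 5.8 CPM in water to 270 to 1020 CPM in DSS PBS (7.5 ± 1.02, adjusted p 7.69e-06 by edgeR), and its counts are uncertain where reads fit its near copy Clca4a. It also rose with anti-IL-36R (6.95 ± 0.991) and anti-IL-12p40 (6.92 ± 0.994) against water. Wfdc2 fell in DSS PBS against water (-1.19, adjusted p 0.0102 by edgeR). It also fell with anti-IL-36R (-1.22, adjusted p 0.0154) and with anti-IL-12p40 (-1.63, adjusted p 0.00122) against water. Clca4a rose with anti-IL-36R against water (1.33, adjusted p 0.0252 by edgeR). It was not called with anti-IL-12p40 (1.06, adjusted p 0.0545) or in DSS PBS (0.81, adjusted p 0.109) against water. Without water replicate 4 it was called in each, at 1.84 with anti-IL-36R, 1.57 with anti-IL-12p40 and 1.32 in DSS PBS. Scin, an actin-severing protein, fell by 1.51 on the log2 scale (SE 0.343) in DSS PBS against water. It was the only companion called with anti-IL-36R against DSS PBS, where it rose (1.1 ± 0.313, adjusted p 0.0343 by edgeR). Agr3, a relative of Agr2 with at most 1.48 CPM, fell by 2.21 (SE 0.551) in DSS PBS against water, the comparison of the values that follow. Ang4, an antimicrobial ribonuclease, was at -6.46 ± 1.64, with 459 CPM in water replicate 4 and 103 CPM in replicate 5 against 1.87 to 3.32 CPM in the others. Those others lie within the DSS PBS range of 0 to 4.14 CPM, so the Ang4 fold rests on water replicates 4 and 5. Without replicate 4 it was -4.43, and 3 companions rose and 4 fell, among them Retnlb, a goblet cell peptide of the resistin family that went from -0.11 to 3.5 (adjusted p 0.0451).

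Of 15 regulators of the secretory lineage and the endoplasmic reticulum, 1 rose and 3 fell, again a share near that of all genes. Xbp1, a transcription factor of the unfolded protein response, rose by 1.04 ± 0.205 in DSS PBS (adjusted p 0.000473 by edgeR) and fell by 0.71 (SE 0.178) with anti-IL-36R against DSS PBS (adjusted p 0.017). Plasma cells also express Xbp1, and 7 of 7 leukocyte markers rose in DSS PBS; their part was not tested. Foxa2 (-1.17 ± 0.343), Hes1 (-0.45 ± 0.168) and Klf4 (-0.65 ± 0.248), transcription factors of the gut epithelium, fell in DSS PBS, and Klf4 was not called without water replicate 4, where Dll1, a Notch ligand, was (-0.51).

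Of 26 enzymes and transporters for mucin O-glycosylation and sulfation, 3 rose and 3 fell, no larger a share than that of all genes. The initiating transferases Galnt1 (0.38 ± 0.0856) and Galnt2 (1.02 ± 0.233) and the sialyltransferase St3gal1 (1.49 ± 0.354) rose, and the sulfate transporter Slc26a2 fell (-1.4 ± 0.372, adjusted p 0.00597 by edgeR). Without water replicate 4, 4 of the 26 rose and 3 fell. Galnt4 (-0.5) and Gcnt3 (-0.32) were then no longer called, Gcnt4 (1.68), St3gal6 (-0.82) and B4galnt3 (-1.05) were, and St3gal1 was at 2.01. St3gal1 fell with anti-IL-36R against DSS PBS (-1.17 ± 0.302), and it was the only one of the 26 called there. Galnt1 rose with anti-IL-12p40 against water (0.29, adjusted p 0.0189 by edgeR). Of 3 other mucins tested, Muc20 rose (2.39 ± 0.615) at no more than 3.63 CPM. With anti-IL-12p40 against DSS PBS, edgeR called 0 genes of these 5 lists. The unadjusted p was below 0.05 for 1 mucin, 3 companions, 1 regulator, 2 O-glycosylation genes and 2 genes of processing and spacing. The same held for 1892 of all 15731 genes tested. Other tools were not run on these lists.

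In skin, only Fcgbp among the 10 genes was abundant. Over all 23 skin libraries, Tff3, Zg16 and Agr2 had at most 1 count per library, under the 3 counts that a count of 0 allows, and were not tested. Spink4 had at most 4 counts, with 0 in all 6 IMQ PBS libraries and 1 to 4 in all 7 with anti-IL-12p40, and was not tested either. Muc2 had 0 to 16 counts per library, Muc13 0 to 18 and Muc1 5 to 41, at most 2.14 CPM. None of these 3 was called in any skin comparison by edgeR. The sweat and simple epithelial gland markers were also low, with a summed level of 3.1 to 20.4 CPM.

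Fcgbp fell in skin with IMQ. It stood at 247, 580 and 573 CPM in water PBS and at 44.4, 41.4, 35.8, 23.3, 13.7 and 34.4 CPM in IMQ PBS. The groups do not overlap, and every IMQ PBS library is far below the lowest water library. Fcgbp differed by -3.86 ± 0.542 on the log2 scale, with an adjusted p of 0.000111 by edgeR, and by between -4.29 and -3.51 under the 17 alternatives, called in each. This skin Fcgbp was sequenced to 195 to 10173 counts per library. Its values were not whole numbers in 3 of 3 water, 4 of 6 IMQ PBS and 7 of 7 libraries with each antibody. In those libraries its reads are shared with other genes.

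Fcgbp rose with each antibody against IMQ PBS. With anti-IL-36R it stood at 78.3, 200 and 318 CPM (lowest, median, highest), with all 7 libraries above every IMQ PBS library. The difference was 2.5 ± 0.467 (log2, adjusted p 0.00503 by edgeR). With anti-IL-12p40 it stood at 37, 301 and 366 CPM, with 6 of 7 libraries above every IMQ PBS library and replicate 6 among them. Here the difference was 3 ± 0.477 (adjusted p 0.00159). With the 3 IMQ PBS libraries numbered near the water controls (replicates 1 to 3) as the only comparator, the anti-IL-36R difference was 2.16 (adjusted p 0.0933), and with replicates 4 to 6 it was 2.94 (adjusted p 0.0588).

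Against water PBS, Fcgbp was -1.36 ± 0.508 with anti-IL-36R (adjusted p 0.0769 by edgeR) and -0.85 ± 0.514 with anti-IL-12p40 (adjusted p 0.323). By median, Fcgbp ran from water through anti-IL-12p40 and anti-IL-36R to IMQ PBS. Only the step from anti-IL-36R to IMQ PBS is larger than the spread. Between the antibodies the difference of -0.5 ± 0.413 did not pass. Leaving out anti-IL-36R replicate 4, the library with the highest Fcgbp of that group, the difference from water was -1.54 with an adjusted p of 0.045.

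Spdef moved the other way in skin. It had 8, 7 and 0 counts in the water libraries (0.436, 0.463 and 0 CPM) and 22 to 159 counts in IMQ PBS (10.8, 4.3, 4.31, 2.57, 1.54 and 2.5 CPM). Every IMQ PBS library was above every water library, and replicates 1 to 3 were above replicates 4 to 6. Spdef rose by 3.84 ± 0.921 (log2, adjusted p 0.00388 by edgeR), and 2.88 to 4.43 under the alternatives, called in each of 17.

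With anti-IL-36R, Spdef stood at 0.179, 0.778 and 1.98 CPM (lowest, median, highest), below every IMQ PBS library in 6 of 7. It fell by 2.2 on the log2 scale (SE 0.569, adjusted p 0.0319 by edgeR). That call was lost when any of IMQ PBS replicates 1, 2 and 3 or anti-IL-36R replicates 2, 4, 5 and 6 was left out (-1.72 to -2.25), and with IMQ PBS replicates 4 to 6 alone it was -1.23 (adjusted p 0.439). With anti-IL-12p40, Spdef stood at 0, 0.158 and 0.802 CPM, below every IMQ PBS library in 7 of 7. It fell by 3.83 (SE 0.645, adjusted p 0.00195), and with IMQ PBS replicates 4 to 6 alone it was -2.87 (adjusted p 0.0519). Between the antibodies Spdef was 1.63 ± 0.67 (adjusted p 0.805, unadjusted 0.0234, by edgeR). Against water it was 1.64 ± 0.918 with anti-IL-36R (adjusted p 0.235) and 0.01 ± 0.967 with anti-IL-12p40 (adjusted p 0.997). Above every water library were 6 of 7 libraries with anti-IL-36R and 2 of 7 with anti-IL-12p40. With 3 water libraries of 0 to 8 counts, the lack of a call does not show a return to the water level.

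Clca1 in skin rested on few reads. It had 20, 17 and 22 counts in the water libraries (1.09, 1.12 and 1.24 CPM) and 0 to 5 counts in IMQ PBS (0 to 0.26 CPM). The groups do not overlap. It fell by 3.42 on the log2 scale (SE 0.762, adjusted p 0.00243 by edgeR). With anti-IL-36R it had 0 to 25 counts and with anti-IL-12p40 1 to 11, and its differences of 2.03 ± 0.727 and 1.81 ± 0.736 from IMQ PBS did not pass in edgeR (adjusted p 0.112 and 0.127). Limma-voom called Clca1 higher with both, at 2.16 with anti-IL-36R (adjusted p 0.0399) and 2.33 with anti-IL-12p40 (adjusted p 0.0249).

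**Figure D4:**
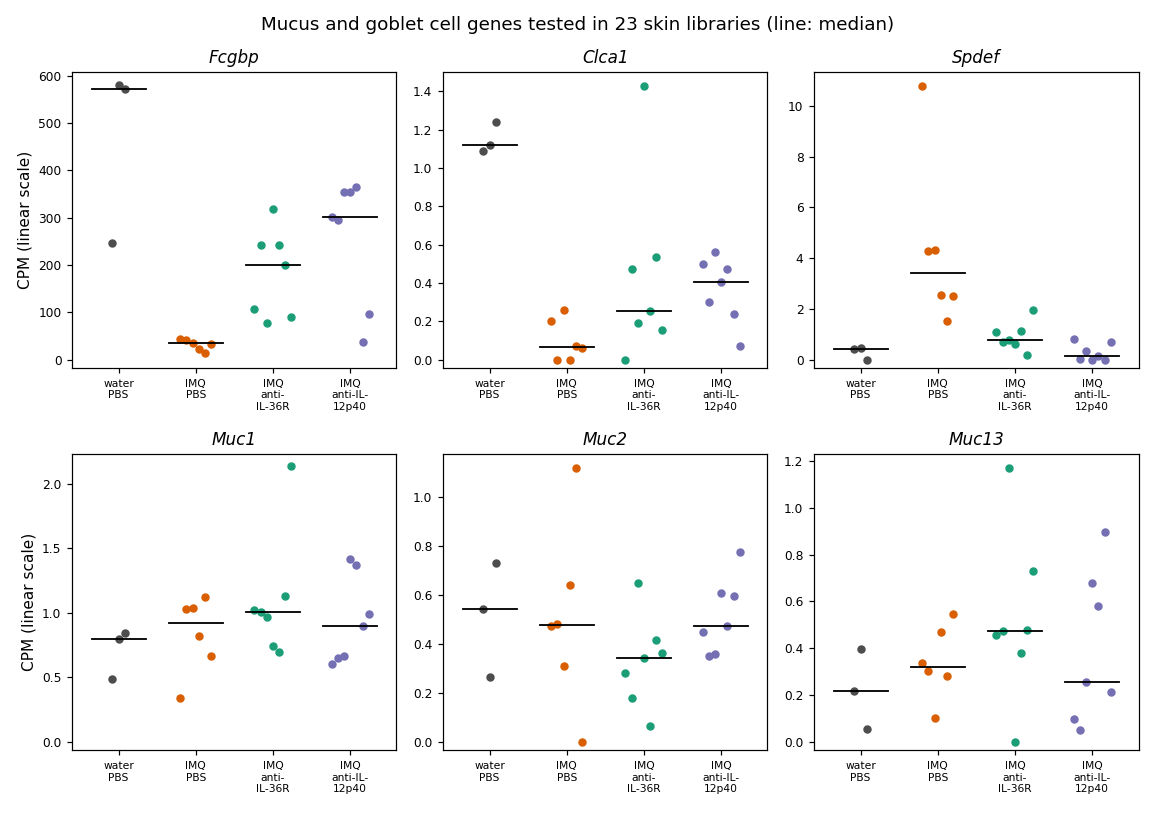
CPM (linear scale) of the 6 genes tested in each of 23 skin libraries by group, with the group median as a line. Fcgbp is high in water (247 to 580 CPM), low in IMQ PBS (13.7 to 44.4 CPM) and between them with either antibody, while Spdef is highest in IMQ PBS (1.54 to 10.8 CPM).

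Of the 6 members tested in skin, 1 rose and 2 fell with IMQ PBS, where 32.9% of the 15345 genes tested were called (15.5% higher and 17.4% lower). With anti-IL-36R 1 rose and 1 fell, where 4.09% of all genes were called (3.21% higher, 0.886% lower). With anti-IL-12p40 1 rose and 1 fell, where 8.72% were called (5.26% higher, 3.46% lower). Between the antibodies 0 of 6 members were called by edgeR (1 at an unadjusted p below 0.05) and 0.0456% of all genes. Against water, 0 of 6 were called with anti-IL-36R (2 at an unadjusted p below 0.05; 13.1% of all genes) and 0 with anti-IL-12p40 (1 at an unadjusted p below 0.05; 4.75%). DESeq2 and limma-voom also called 0 members in these 3 comparisons. Of the 15345 genes tested, 806, 4595 and 3542 in turn had an unadjusted p below 0.05 by edgeR.

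Sebaceous gland markers moved with skin Fcgbp. All 10 of them fell with IMQ PBS, 10 rose with anti-IL-36R and 9 with anti-IL-12p40 against IMQ PBS. Their mean level was 6.12 to 7.33 log2 CPM in water, 4.03 to 5.71 in IMQ PBS, 5.65 to 7.02 with anti-IL-36R and 5.62 to 7.02 with anti-IL-12p40, and the summed level ran from 3660 to 6790 CPM in water and from 716 to 2090 CPM in IMQ PBS. Over the 23 libraries Fcgbp correlated with that level at r = 0.83, and at 0.49 after subtracting group means. With the neutrophil markers, of which 6 of 7 tested rose with IMQ PBS, it correlated at -0.84 and at -0.65 within groups. The part of sebaceous gland or neutrophil RNA in the Fcgbp result was not tested. Spdef correlated with the sebaceous level at -0.7 and at -0.29 within groups, and with keratinocyte markers at 0.51 within groups.

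**Figure D5:**
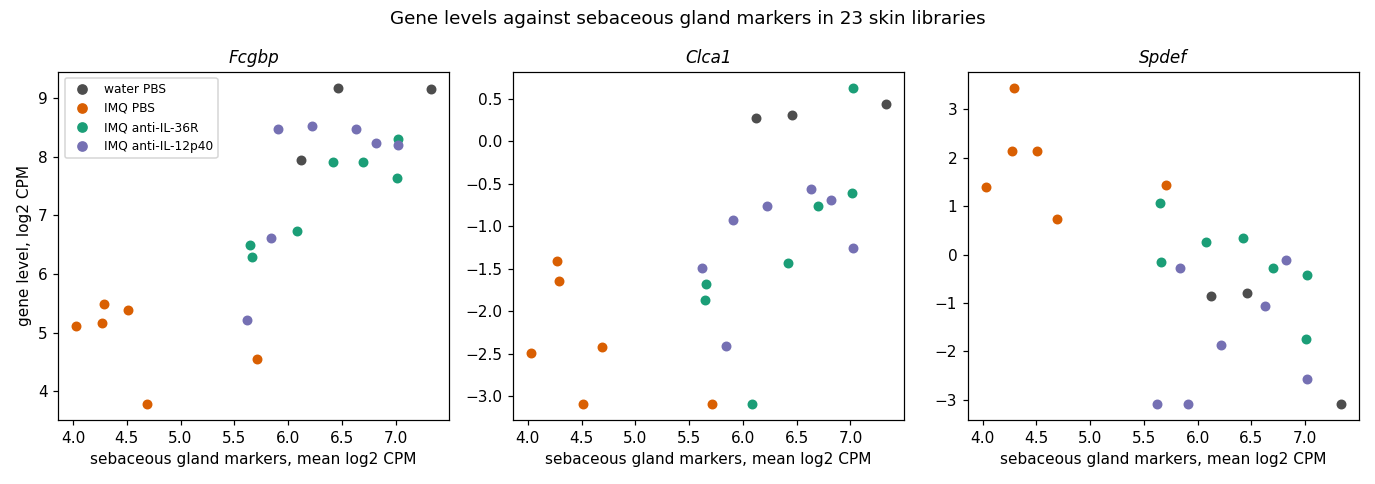
Level of Fcgbp, Clca1 and Spdef (log2 CPM, y axis) against the mean level of 10 sebaceous gland markers (log2 CPM, x axis) in 23 skin libraries, coloured by group. The IMQ PBS libraries lie at the left (4.03 to 5.71), low for Fcgbp and high for Spdef, and the r of Fcgbp over all libraries (0.83) is larger than that within groups (0.49).

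In skin, lists are read beside the 32.9% of all genes called with IMQ PBS, 4.09% with anti-IL-36R and 8.72% with anti-IL-12p40. Of 11 goblet cell companions tested there, 6 fell with IMQ PBS and 0 rose, among them Scin (-1.15 ± 0.173), Hepacam2 (-3.11 ± 0.555), the receptor partner Ramp1 (-1.14 ± 0.229) and Sytl2 (-1.14 ± 0.233), an effector of vesicle docking. Scin rose with anti-IL-36R (0.69 ± 0.143) and with anti-IL-12p40 (0.73 ± 0.143), and Hepacam2 (1.85 ± 0.496) with anti-IL-12p40. Of 21 O-glycosylation genes 7 rose and 2 fell with IMQ PBS, with Galnt3 (1.09 ± 0.185) at the smallest adjusted p, 0.00041 by edgeR. Galnt3 fell by 0.62 (SE 0.137) with anti-IL-12p40. The membrane mucin Muc15, the other mucin tested in skin, fell with IMQ PBS (-0.67 ± 0.219) and rose with anti-IL-36R (0.64 ± 0.177) and anti-IL-12p40 (0.61 ± 0.177).

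The tissues were compared in 1 fit of all 49 libraries over 16818 genes, as the disease effect in colon minus that in skin. For Fcgbp this was 3.07 ± 0.687 (adjusted p 0.00106 by edgeR), as it fell more in skin than it differed in colon. For Spdef it was -4.59 ± 1.12 (adjusted p 0.00252). These were 3.17 and -3.4 without colon water replicate 4, both called, and limma-voom gave Spdef -3.06 (adjusted p 0.205). Of all genes, 22.3% were called for this difference. For the anti-IL-36R effect, 5.13% of all genes and 0 members were called by edgeR. The unadjusted p was below 0.05 for 2 members and for 3322 of the 16818 genes. Fcgbp was at -1.66 ± 0.579 (adjusted p 0.0848 by edgeR) and Spdef at 2.3 ± 0.761 (adjusted p 0.0662). DESeq2 called both, limma-voom called Fcgbp, and without colon water replicate 4 Spdef was called (2.31, adjusted p 0.0293). For the anti-IL-12p40 effect, Spdef was called at 4.12 ± 0.862 (adjusted p 0.00779), with 1.84% of all genes, and Fcgbp was at -2.03 ± 0.591 (adjusted p 0.0584). Members with almost no reads in skin say nothing in this fit.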

How the data were processed

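Purified mRNA was sequenced with strand-specific libraries, per the labels' protocols. The authors deposited 1 table per tissue of expected counts per gene, estimated with RSEM on mm10 per the submitters' processing notes; versions and annotation are not given in the sources used here. Expected counts share reads among genes that fit them. All columns were matched to samples by title (0 columns not used), and 24375 of 24475 gene IDs to a symbol.

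After rounding, edgeR 4.0.16 (R 4.3.3) was run with filterByExpr, TMM, robust dispersion and robust quasi-likelihood F tests, all 4 groups of a tissue in 1 fit, Benjamini-Hochberg over all genes tested (15731 in colon, 15345 in skin). TMM factors were 0.91 to 1.09 in colon and 0.833 to 1.08 in skin. SEs were derived as |log2 fold change| / sqrt(F). The robust option was chosen after the data were seen, because it gave the whole-table counts of an earlier processing of these files. Marker levels and correlations used log2 CPM with a prior count of 2. DESeq2 1.42.0, limma 3.58.1 with sample weights and other settings were alternatives. The fits were tested on simulated counts with the same spread for every gene and no outlying library. That does not bear on calls that depend on single libraries, as in colon. Figures were drawn with matplotlib 3.10.9 under Python 3.11.15.

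The members and lists were chosen with earlier results of these data known. All 10 members are described. In colon, up to 4 called genes with the smallest adjusted p are named from each pathway list per comparison. For some lists in skin fewer are named. Retnlb, Dll1, Galnt4, Gcnt3, Gcnt4, St3gal6, B4galnt3 and genes that define a marker list fall outside that rule. So do Wfdc2 in DSS PBS against water, and Clca4a in DSS PBS and with anti-IL-12p40 against water. All of these but the marker genes were chosen after their values were seen. The 5 genes most like Muc2, Spdef and Muc1 are those with the highest within-group Pearson r among genes with a mean log2 CPM of at least 1. Counting error depends on depth, and PCR duplicates cannot be removed from these counts.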

Additional observations from a re-analysis of the deposited data

Results flagged for a closer look

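In a group of 4 to 10 libraries, a value was singled out when its gap to the next library took an unusually large share of the group's range of log2 CPM by Dixon's test, which chance does in about 1 in 20 groups. In colon water PBS, replicate 4 was such a value for Muc2 (46400 CPM) and Spdef (193 CPM), and replicate 5 for Spink4 (433 CPM). In skin under IMQ with anti-IL-36R, replicate 7 was one for Muc1 (2.14 CPM, 41 counts) and replicate 4 for Muc13 (0 CPM). Both skin values rest on few reads.

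The response to disease differed between the tissues in the joint edgeR test for Fcgbp (3.07, colon minus skin, log2) and Spdef (-4.59). The response to anti-IL-12p40 differed for Spdef (4.12). Each skin response compared is to imiquimod and each colon response to dextran sulfate sodium, so tissue and agent cannot be told apart.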

How the results depend on the processing

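Over 86 results and 1695 values under other settings, 1512 kept their direction and their side of the threshold, 43 lost a call, 28 gained one and 112 changed sign. The fits with the distal hindgut covariate, the non-robust fit and the removal of colon water replicate 4 were chosen after seeing the data. The epithelium covariate alone was planned. The cause of these changes was not tested. The counts of members called below stand without the share of all genes called under the same setting. A changed count is therefore not read as a result about these genes. No paired analysis was possible because the labels give no replicate number shared between groups.

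In DSS PBS against water, 2 members were called, but 1 with no filter on low counts, 0 with the compared groups alone, 1 with the epithelium covariate, 1 with the distal hindgut covariate and 1 without water replicate 4. DESeq2 and limma-voom each called 3 there, Tff3 added. With anti-IL-36R against water, where 0 were called, 1 was called by DESeq2, 1 by limma-voom, 1 with the compared groups alone, 1 with the epithelium covariate and 1 with both covariates. With anti-IL-12p40 against water, 1 was called, but 0 with no filter, 0 with the distal hindgut covariate and 0 without water replicate 4. In skin, anti-IL-36R against IMQ PBS went from 2 called to 1 with IMQ PBS replicates 1 to 3 alone and 0 with replicates 4 to 6 alone, and anti-IL-12p40 from 2 to 1 with replicates 4 to 6 alone; by limma-voom each rose to 3, Clca1 added. Anti-IL-12p40 against water in skin went from 0 to 1 with the compared groups alone (Clca1). Between tissues, the anti-IL-36R difference went from 0 to 2 by DESeq2, 1 by limma-voom and 1 without water replicate 4, the anti-IL-12p40 difference from 1 to 2 by DESeq2, and the disease difference from 2 to 1 by limma-voom and to 3 by DESeq2 (Spink4 added).

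Leaving out 1 library at a time, the members called ranged from 0 to 3 in DSS PBS against water, 0 to 1 with anti-IL-36R and 0 to 1 with anti-IL-12p40 against water, 0 to 2 with anti-IL-36R and 0 to 1 with anti-IL-12p40 against DSS PBS, 1 to 3 in skin with anti-IL-36R against IMQ PBS and 0 to 2 against water.

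By limma-voom with sample weights the sign changed in DSS PBS against water for Muc2 (0.89), Agr2 (0.25) and Spdef (0.7), with anti-IL-36R against water for Muc2 (0.89), Zg16 (-0.03), Agr2 (0.25), Muc1 (-0.33) and Spdef (0.44), and with anti-IL-12p40 against water for Muc2 (1.02), Zg16 (-0.01), Agr2 (0.24) and Spdef (0.69). Against DSS PBS it changed with anti-IL-36R for Agr2 (0 after rounding), Spink4 (-0.16) and Spdef (-0.26), and with anti-IL-12p40 for Agr2 (0 after rounding), Spink4 (-0.05), Muc1 (-0.08) and Spdef (-0.01). In skin with anti-IL-12p40 it changed for Muc1 (-0.11) and Muc13 (-0.27) against IMQ PBS and for Spdef (-0.22) against water, the last also by DESeq2 (0 after rounding). With no filter, Spink4 with anti-IL-36R against DSS PBS was -0.01.

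Without water replicate 4 the sign changed in DSS PBS against water for Muc2 (0.87), Agr2 (0.01) and Spdef (0.48), with anti-IL-36R against water for Muc2 (1.26), Agr2 (0.24) and Spdef (0.58), and with anti-IL-12p40 against water for Muc2 (1.28), Agr2 (0.22) and Spdef (0.75). With the epithelium covariate it changed for Agr2 (0.04) and Muc13 (0.16) in DSS PBS against water, for Zg16 with anti-IL-36R against water (-0.03), for Muc2 (-0.11), Agr2 (-0.2), Spink4 (-0.38) and Spdef (-0.39) with anti-IL-36R against DSS PBS, and for Muc2 (-0.11), Agr2 (-0.19), Spink4 (-0.24) and Spdef (-0.2) with anti-IL-12p40 against DSS PBS. With the distal hindgut covariate it changed for Muc13 in DSS PBS against water (0.02), and against water for Muc2 (0.31) and Zg16 (-0.01) with anti-IL-36R and Muc2 (0.09) and Zg16 (-0.09) with anti-IL-12p40. With both covariates Muc13 was 0.34 in DSS PBS against water, Muc2 was 0.3 and Zg16 -0.06 with anti-IL-36R against water, Muc2 was 0.15 and Zg16 -0.04 with anti-IL-12p40 against water, Spink4 was -0.28 with anti-IL-36R against DSS PBS, and Agr2 was -0.03 and Spink4 -0.19 with anti-IL-12p40 against DSS PBS. With IMQ PBS replicates 4 to 6 alone, Muc2 was 0.15 in IMQ PBS against water, and Muc2 was -0.19 and Muc13 -0.18 with anti-IL-12p40 against IMQ PBS.

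Leaving out 1 library at a time, the values that changed sign ranged in DSS PBS against water from -1.26 to 0.87 for Muc2, -0.64 to 0.01 for Agr2, -0.95 to 0.48 for Spdef and -0.19 to 0.11 for Muc13. With anti-IL-36R against water they ranged from -0.86 to 1.26 for Muc2, -0.04 to 0.11 for Zg16, -0.34 to 0.24 for Agr2, -0.12 to 0.33 for Muc1 and -0.85 to 0.58 for Spdef, and with anti-IL-12p40 against water from -0.78 to 1.28 for Muc2, -0.11 to 0.15 for Zg16, -0.35 to 0.22 for Agr2 and -0.67 to 0.75 for Spdef. The highest values of Muc2, Agr2 and Spdef in these 3 comparisons are those without water replicate 4. Against DSS PBS they ranged from -0.2 to 0.25 for Spink4 and -0.12 to 0.31 for Spdef with anti-IL-36R, and from -0.08 to 0.37 for Spink4 and -0.17 to 0.2 for Muc1 with anti-IL-12p40. In skin they ranged from -0.42 to 0.27 for Muc2 in IMQ PBS against water. With anti-IL-12p40 there they ranged from -0.02 to 0.24 for Muc1, -0.23 to 0.39 for Muc2 and -0.15 to 0.4 for Muc13 against IMQ PBS, and from -0.31 to 0.3 for Muc2 and -0.58 to 0.43 for Spdef against water.

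Depth limits Clca1, Spdef, Muc1, Muc2 and Muc13 in skin, which rest on few counts.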
